A study of Mus musculus with 6 samples.

Results

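Zfp42, Prdm14, Tbx3 and Sall4 are 4 genes of the naive pluripotency network of mouse embryonic stem cells. Each was taken as a fixed interval of build mm9 set around the gene. The rule uses no read count, but the genes and intervals were chosen with earlier results of these data known. The intervals are chr8:44375001-44398000 for Zfp42, chr1:13095001-13125000 for Prdm14, chr5:120110001-120140000 for Tbx3 and chr2:168568001-168600000 for Sall4. Together the intervals cover 115 kb in 58 bins of 2 kb (the last bin at Zfp42 is 1 kb long). A listed site was found in 56 of them, and in 1181189 such bins over all nuclear chromosomes. They hold 1064 of 6246187 cytosines listed for 5-formylcytosine (5fC) and 2081 of 20807838 listed for 5-hydroxymethylcytosine (5hmC). All DNA came from E14 cells, an established line of mouse embryonic stem cells, grown in serum with LIF on gelatin. The 6 Pvu-Seal-seq libraries are 2 technical replicates of 5fC at passage 14, 2 of 5hmC at passage 14, and 2 of 5hmC from another culture at passage 12. No treatment or mutant was used. The deposited tables hold a single pooled count for each mark at each listed cytosine, so no value has a replicate error. Whether the culture at passage 12 contributes to the 5hmC table is unstated. Intervals given below are 95% intervals of counting error only, and several reads can stem from 1 molecule, since no molecular identifiers were used.

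5hmC is the first product when TET enzymes oxidise 5-methylcytosine, and 5fC is made from it by a further oxidation. 5fC can be removed by the glycosylase TDG and base excision repair, which returns an unmodified cytosine. Naive pluripotency is the state of the early epiblast, which mouse embryonic stem cells can keep in culture. Prdm14 is a PR-domain zinc finger protein of that state and of germ cell precursors, known for repressing de novo DNA methyltransferase genes and FGF signalling. Tbx3 is a T-box transcription factor that helps to sustain self-renewal. Sall4 is a spalt-like zinc finger factor found with Oct4 and Nanog at many sites and needed for epiblast and stem cell maintenance. Zfp42, also called Rex1, is a zinc finger protein whose expression is the customary marker of naive cells and is lost early as they leave that state. DNA modification does not measure expression, so the label of the cells was not checked against these markers.

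In RefSeq's GRCm38.p6 annotation, used here for gene order alone, the nearest protein-coding neighbours are Slco5a1 and Ncoa2 for Prdm14, Med13l and Tbx5 for Tbx3, Atp9a and Zfp64 for Sall4, and Triml2 and Adam26b for Zfp42. No mm9 annotation was used here, so promoters, exons and introns are not placed within the intervals, and positions are given by base. A RefSeq promoter was at hand for 1 of the 4 genes. The 250 bases before the start of Zfp42 lie on the minus strand of GRCm38.p6 at chr8:43307010-43307259, coordinates that must not be set against those of mm9. The sequence is shown because the bases that can carry CG modification are visible in it, with each CG in capitals.
Zfp42 promoter: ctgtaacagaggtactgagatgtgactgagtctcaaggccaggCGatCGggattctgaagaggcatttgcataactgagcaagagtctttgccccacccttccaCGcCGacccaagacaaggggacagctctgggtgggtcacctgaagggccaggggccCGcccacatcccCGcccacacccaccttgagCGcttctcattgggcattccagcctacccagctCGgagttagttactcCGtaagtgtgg
It has 9 CG dinucleotides and 58.4% G or C. The median over the 32851 promoters of the table is 6 CG in as many bases, and 40.3% have at least 9. The listed cytosines did not place this promoter within the mm9 interval: of 22701 possible placements of the whole RefSeq entry, which also has the first bases of the gene, 6984 contradicted no listed cytosine, and none of those matched more than 3.

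All 4 intervals had more reads of both marks per kb than the 500 kb on each side of them, and for 5fC the excess was 1.72-fold or more in each. Prdm14 had 143 5fC reads per kb, against 81.3 in its flanks, a ratio of 1.76 (interval 1.71 to 1.82). Tbx3 had 146 and its flanks 82.6 5fC reads per kb, also a ratio of 1.76 (1.71 to 1.82). Sall4, the interval with the most reads per kb, had 218 against 127 in its flanks, a ratio of 1.72 (1.68 to 1.76). Zfp42, in the sparsest surroundings, had 64.5 5fC reads per kb against 28.4, a ratio of 2.27 (2.15 to 2.39).

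The excess of 5hmC was smaller in every interval. Prdm14 had 248 5hmC reads per kb against 176 in its flanks, a ratio of 1.41 (1.38 to 1.44). Tbx3 had 227 against 202, a ratio of 1.12 (1.09 to 1.15), and Sall4 had 337 against 282, a ratio of 1.19 (1.17 to 1.22). Zfp42 had 134 against 74.4, a ratio of 1.81 (1.74 to 1.87). The order of the 4 genes by reads per kb was Sall4 first and Zfp42 last for both marks. Tbx3 and Prdm14 were close for 5fC, while for 5hmC Prdm14 lay above Tbx3. Counting each listed cytosine once, the ratio to the flanks was 1.64 at Prdm14, 1.81 at Tbx3, 1.68 at Sall4 and 2.54 at Zfp42 for 5fC, and 1.27, 1.18, 1.17 and 1.83 in the same order for 5hmC. The 5fC excess followed the number of listed cytosines, and the median reads at a 5fC site were 14, 11, 12 and 11 in these intervals against 14, 11, 12 and 14 in their flanks.

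The flanks were uneven, so the spread of windows of each interval's own length, tiled outward over both flanks, serves as the yardstick. Prdm14 had more 5fC reads than 32 of 32 windows, which lay between 25.8 and 139 reads per kb. Tbx3 exceeded 30 of 32 windows (31.6 to 151) and Sall4 29 of 30 (62.7 to 244). Zfp42 exceeded 34 of 42 windows, which spread from 2.09 to 150 reads per kb. For 5hmC the intervals of Prdm14, Tbx3 and Sall4 were more ordinary, exceeding 26 of 32, 21 of 32 and 24 of 30 windows. Zfp42 ranked almost alike for both marks, exceeding 33 of 42 windows for 5hmC. Windows are neighbouring stretches of the same DNA and not replicates, and no test was made.

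**Figure D1:**
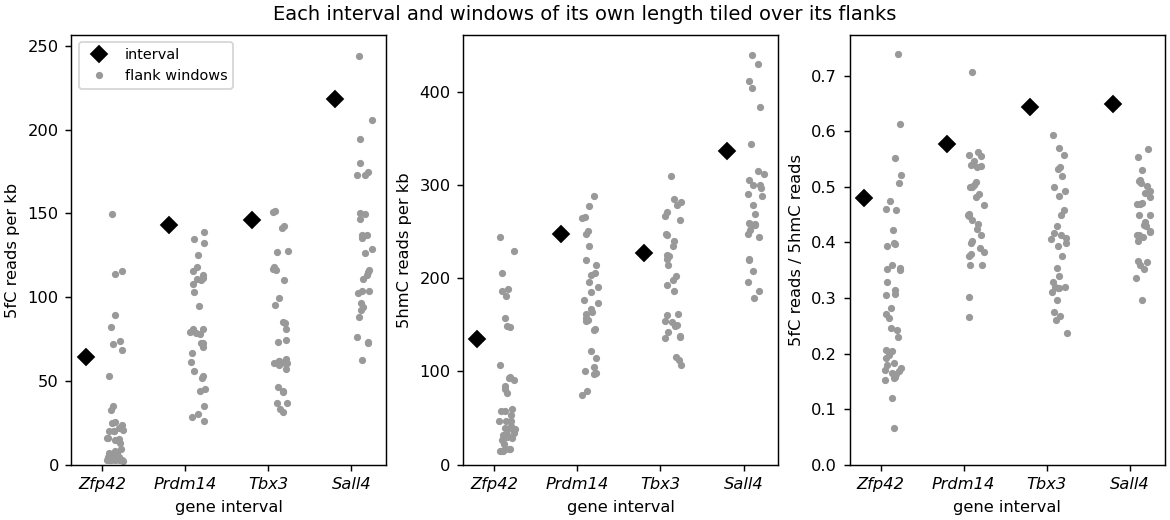
Black diamonds show each gene interval and grey dots the windows of equal length tiled over its 500 kb flanks, with 5fC reads per kb on the left, 5hmC reads per kb in the middle and the ratio of 5fC to 5hmC reads on the right. The diamonds of Tbx3 and Sall4 lie above all their windows in the ratio, at 0.644 and 0.649, while the 5hmC diamonds lie within the spread.

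Much of the excess belonged to a broader neighbourhood than the gene. Reads of 5fC were 111 per kb within 50 kb of the Prdm14 interval and 75.5 at 200 to 500 kb. Around Tbx3 the same distances gave 134 and 65.8, and around Sall4 159 and 110 5fC reads per kb. The fall with distance was not steady, and around Sall4 the level at 50 to 100 kb was 190 5fC reads per kb. Around Zfp42 the nearest 50 kb had 94.8 5fC reads per kb, above the 64.5 of the interval itself, and the distance of 200 to 500 kb had 8.86. Set against 100 kb on each side in place of 500 kb, the 5fC ratio was 1.31 at Prdm14, 1.21 at Tbx3, 1.25 at Sall4 and 0.941 at Zfp42. With those nearer flanks the 5hmC ratio was 1.12 at Prdm14, 0.946 at Tbx3, 0.982 at Sall4 and 0.886 at Zfp42. These values lay below 1 for 5hmC at 3 genes and for 5fC at Zfp42. At Sall4 the counting interval of the 5hmC ratio, 0.963 to 1.00, reached 1, so its direction is not settled. Zfp42 was lower than its nearer flanks in both marks (5fC 0.892 to 0.993, 5hmC 0.854 to 0.920), and its level stood out against distant and sparse DNA and not against its close surroundings.

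**Figure D2:**
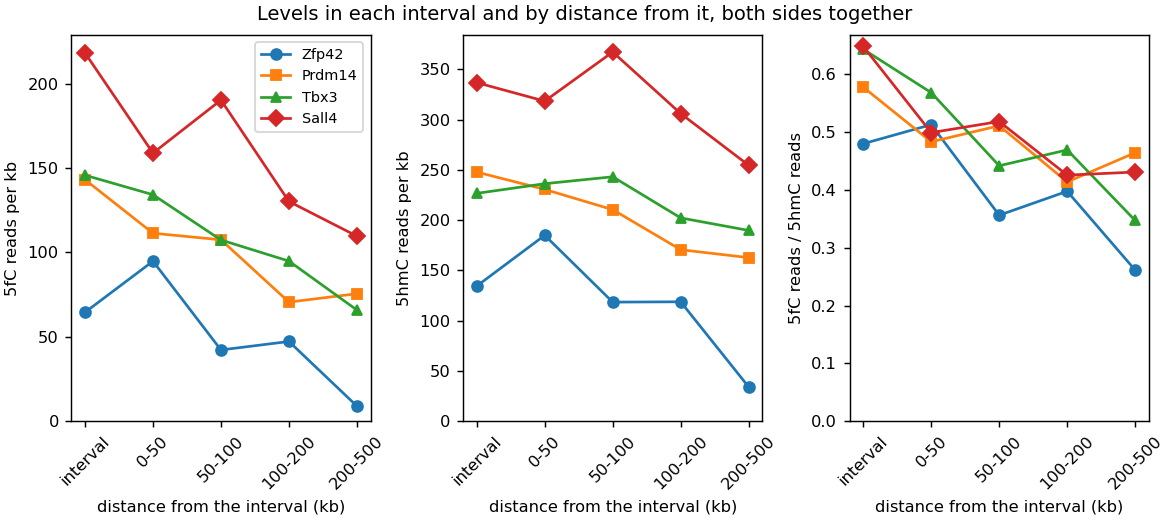
Reads per kb of 5fC (left) and 5hmC (middle) and their ratio (right) in each interval and in DNA at increasing distance from it, both sides together. At Prdm14, Tbx3 and Sall4 the 5fC level and the ratio are highest in the interval, whereas at Zfp42 both are highest within 50 kb outside it, at 94.8 reads per kb and 0.513.

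The marks were not enriched in the same measure. The number of 5fC reads per 5hmC read was 0.578 at Prdm14, 0.644 at Tbx3, 0.649 at Sall4 and 0.480 at Zfp42, and 0.387 over all nuclear chromosomes. The flanks had 0.463, 0.409, 0.449 and 0.383 in the same order. Interval over flanks, the ratio was 1.25-fold higher at Prdm14 (interval 1.20 to 1.30), 1.57-fold at Tbx3 (1.51 to 1.64), 1.44-fold at Sall4 (1.40 to 1.49) and 1.26-fold at Zfp42 (1.18 to 1.34). With flanks of 100 kb it was 1.16 at Prdm14 (1.12 to 1.21), 1.28 at Tbx3 (1.22 to 1.33) and 1.27 at Sall4 (1.23 to 1.31). At Zfp42 it was then 1.06 (0.995 to 1.13), an interval that includes 1. Tbx3 and Sall4 exceeded all of their windows of equal length, 32 and 30 in number, whose highest ratios were 0.593 and 0.568. Prdm14 exceeded 31 of 32 windows and Zfp42 37 of 42.

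The ratio also moved with the amount of 5hmC. In flank bins with at least the 5hmC reads per kb of the interval it was 0.527 around Prdm14 (134 of 500 bins), 0.452 around Tbx3 (195), 0.515 around Sall4 (160) and 0.483 around Zfp42 (89). The intervals of Prdm14, Tbx3 and Sall4 were above these values at 0.578, 0.644 and 0.649, and that of Zfp42 was level with its own at 0.480. Among windows of equal length with at least the interval's 5hmC reads, the interval's ratio was higher than in 6 of 6 at Prdm14, 11 of 11 at Tbx3, 6 of 6 at Sall4 and 5 of 9 at Zfp42.

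Within the intervals both marks were uneven between bins of 2 kb. The fullest bin held from 18.5% (Prdm14) to 27.8% (Zfp42) of an interval's 5fC reads. For 5hmC it held from 11.7% (Prdm14) to 25.9% (Zfp42). A bin was called high at 2 times the mean reads per kb of the flanks. For 5fC, 4 of 15 bins were high at Prdm14 where 14.6% of the flank bins were, 6 of 15 at Tbx3 (flank bins 14.6%), 6 of 16 at Sall4 (13.6%) and 4 of 12 at Zfp42 (15.2%). For 5hmC, 5 of 15 were high at Prdm14 (flank bins 8%), 2 of 15 at Tbx3 (8.8%), 3 of 16 at Sall4 (5.6%) and 3 of 12 at Zfp42 (16.2%). Over the 4 genes 20 of 58 bins were high for 5fC (flank bins 13.6 to 15.2% by gene) and 13 of 58 for 5hmC (5.6 to 16.2%). The median bin had 1.48 times the flank mean of 5fC at Prdm14, 1.42 at Tbx3, 1.12 at Sall4 and 1.72 at Zfp42, whereas the median flank bin had between 0.193 and 0.722 times that mean. With flanks of 100 kb fewer bins were high. For 5fC they were 3 of 15 at Prdm14 (flank bins 12%), 2 of 15 at Tbx3 (12%), 3 of 16 at Sall4 (10%) and 2 of 12 at Zfp42 (15%). For 5hmC they were 0 of 15 at Prdm14 (5%), 1 of 15 at Tbx3 (6%), 1 of 16 at Sall4 (4%) and 2 of 12 at Zfp42 (8%). Low bins, at most 0.5 times the flank mean, were rarer than in the flanks at Prdm14, Tbx3 and Zfp42. For 5fC they were 1 of 15 at Prdm14 (flank bins 42.6%), 2 of 15 at Tbx3 (42.6%), 4 of 16 at Sall4 (37.0%) and 3 of 12 at Zfp42 (67.6%). For 5hmC they were 1 of 15 at Prdm14 (29.8%), 2 of 15 at Tbx3 (26.4%), 4 of 16 at Sall4 (21.6%) and 3 of 12 at Zfp42 (50.6%), which for Sall4 is close to the flanks. Across bins the marks followed each other, with Spearman correlations of 0.88 at Prdm14 (15 bins), 0.89 at Tbx3 (15), 0.94 at Sall4 (16) and 0.99 at Zfp42 (12). Bins share their DNA and the base composition around them, so these values are descriptive.

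**Figure D3:**
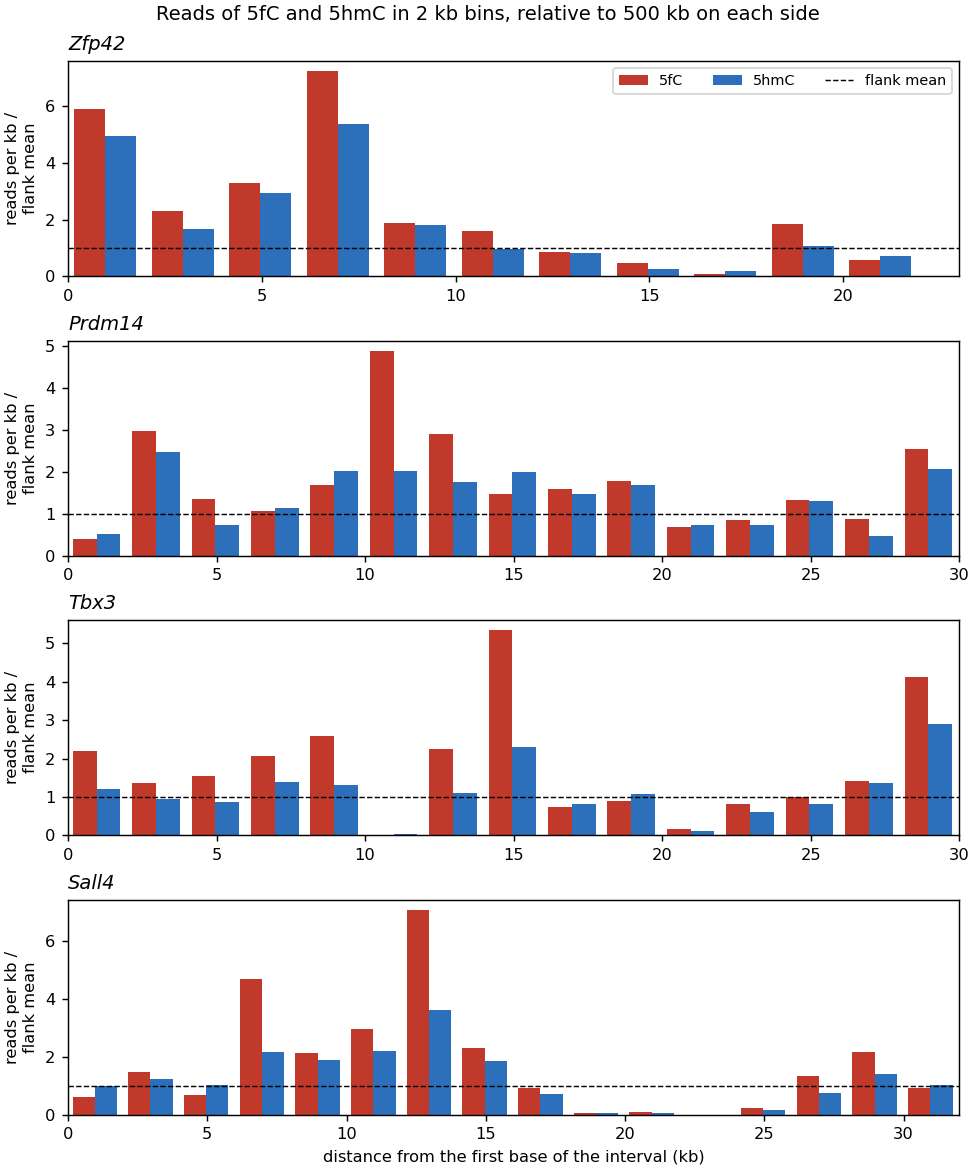
Reads per kb of 5fC (red) and 5hmC (blue) in consecutive 2 kb bins of each interval, divided by the mean of the flanks (dashed line at 1), against the distance from the interval's first base. The leading 5fC bin reaches between 4.88 times the flank mean at Prdm14 and 7.24 times at Zfp42. Tbx3, Sall4 and Zfp42 each have almost empty bins.

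Against the pooled ratio of the 500 kb flanks, the share of 5fC was higher in most bins and not in the tallest bin alone. The flank bins used here were not matched to the intervals in 5hmC. At Zfp42 the interval as a whole, at 0.480, was level with its 5hmC-dense flank bins, at 0.483. Among bins with at least 100 5hmC reads, the ratio of 5fC to 5hmC was above that of the flanks in 10 of 15 bins at Prdm14, where 35.4% of such flank bins were above it. The counts were 11 of 13 at Tbx3 (flank bins 34.7%), 9 of 12 at Sall4 (38.5%) and 8 of 9 at Zfp42 (35.7%). The median ratio of these bins was 0.500 at Prdm14, 0.582 at Tbx3, 0.571 at Sall4 and 0.455 at Zfp42, against flank medians of 0.378, 0.321, 0.367 and 0.289.

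At Prdm14 the bin with the most 5fC was not the bin with the most 5hmC, though each was high for both marks. The bin at chr1:13105001-13107000, 10 to 12 kb into the interval, had 794 5fC reads at 32 sites and 711 5hmC reads at 35 sites. Its ratio of 1.12 was the highest of the bins with at least 100 5hmC reads in the 4 intervals, and its 5fC was 4.88 times the flank mean while its 5hmC was 2.02 times. Of 500 flank bins, 7 had more 5fC reads. By 5hmC the leading bin was chr1:13097001-13099000, with 485 5fC and 872 5hmC reads. The lowest bin was the first of the interval for 5fC, with 66 5fC and 184 5hmC reads, and chr1:13121001-13123000 for 5hmC, with 144 5fC and 166 5hmC reads. None of the 15 bins was empty of either mark.

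The deepest 5fC cytosine of Prdm14 was a CG on the minus strand at position 13098815, with 117 5fC and 49 5hmC reads. The cytosine opposite it in the same CG had 29 5fC and 64 5hmC reads. The 5fC reads of that dyad were thus uneven between strands, at a site picked for its 5fC, and the 5hmC reads less so. Next came a CG on the plus strand at 13108269, with 82 5fC and 111 5hmC reads and its partner cytosine listed for neither mark. The third was outside CG, a CT on the minus strand at 13100394 with 78 5fC and 13 5hmC reads. This CT lay 5.393 kb into the interval, and a CG on the same strand at 5.371 kb had 42 5fC and 53 5hmC reads. That CG is 20 to 23 bases downstream of the CT, the spacing described below for cytosines outside CG. Whether the reads of the CT are independent of that CG was not tested. By 5hmC the deepest were CG cytosines at 13097945 on the minus strand (36 5fC and 118 5hmC reads), 13108269 again, and 13109267 on the plus strand (11 and 86). Longest without a 5fC site was chr1:13109759-13111355, 1597 bases that held 12 5hmC sites, and the longest stretch without either mark was 760 bases from 13102957 to 13103716.

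At Tbx3 the leading 5fC bin was chr5:120124001-120126000, 14 to 16 kb into the interval. It had 883 5fC reads at 54 sites and 929 5hmC reads at 75 sites, a ratio of 0.950 and 5.34 times the flank mean of 5fC. Of 500 flank bins, 4 had more 5fC reads. The last bin, chr5:120138001-120140000, led by 5hmC with 681 5fC and 1175 5hmC reads. Between these lay poorer DNA, with 26 5fC and 40 5hmC reads at chr5:120130001-120132000. The poorest bin was chr5:120120001-120122000, with 0 5fC sites and 3 5hmC sites holding 16 reads, directly between bins with 429 and 370 5fC reads.

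That hollow ran from 120119677 to 120122107, 2431 bases without a listed 5fC site, inside which 1755 bases from 120120017 to 120121771 had no site of either mark. The flanks of Tbx3 held 5 stretches at least as long without either mark, the longest of 5659 bases. Absence from a list does not show absence of the mark, and the number of CG dinucleotides in the hollow is not known here. The 3 deepest 5fC cytosines of Tbx3, sites picked for their 5fC, were in CG and had more 5fC than 5hmC reads: 120125959 on the minus strand (91 and 47 reads), 120125817 on the plus strand (67 and 32) and 120139582 on the minus strand (62 and 58). In all 3 the partner cytosine of the dyad was listed for neither mark. By 5hmC the deepest were 120128405 on the minus strand, with 18 5fC and 82 5hmC reads, 120138661 on the minus strand, with 29 and 78, and 120139127 on the plus strand, with 36 and 69.

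Sall4 had the densest bin of the 4 genes. The bin at chr2:168580001-168582000, 12 to 14 kb into the interval, held 1790 5fC reads at 114 sites and 2041 5hmC reads at 164 sites. This was 7.06 times the flank mean of 5fC and 3.61 times that of 5hmC, and 0 of 500 flank bins had more reads of either mark. It held 25.6% of the 5fC and 18.9% of the 5hmC reads of the interval. Its reads lay at many cytosines, with medians of 12 5fC and 9 5hmC reads per site, as in the interval as a whole. Another bin, chr2:168574001-168576000, had 1186 5fC and 1218 5hmC reads and the highest ratio of the Sall4 bins with at least 100 5hmC reads, 0.974.

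Beyond these bins Sall4 was nearly bare over 4 bins. From 168586001 to 168594000 the bins held 17, 23, 0 and 58 5fC reads and 34, 27, 0 and 97 5hmC reads. Between 168589172 and 168593224, 4053 bases held no listed site of either mark, longer than any such stretch in its flanks, where the longest was 2912 bases. For 5fC alone the stretch without a site was 4742 bases, from 168588807 to 168593548, against at most 4528 bases in the flanks. The deepest 5fC cytosines lay on the plus strand in CG: 168595817 with 96 5fC and 33 5hmC reads, beyond the bare stretch, 168575618 with 95 and 90, and 168575591 with 76 and 32. By 5hmC the deepest were 168582232 on the minus strand with 18 5fC and 98 5hmC reads, 168575618 with 95 and 90, and, with 75 5hmC reads each, 168570720 and 168579754 on the plus strand, which had 29 and 10 5fC reads.

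Zfp42 was marked mostly in its first 8 kb. The leading bin for both marks was chr8:44381001-44383000, with 412 5fC reads at 25 sites and 800 5hmC reads at 67 sites, and the first bin followed with 336 5fC and 738 5hmC reads. Against the sparse flanks the leading bin stood at 7.24 times for 5fC and 5.38 times for 5hmC, and 11 flank bins had more 5fC reads. None of its 20 CG dyads with 5fC was listed on both strands, against 16 of its 34 dyads with 5hmC. Listing on both strands was also rarer for 5fC in the whole interval, with 9 of 59 dyads against 46 of 113. In the flanks it was 20.7% against 40.0%. From 44389001 to 44393000 the bins held 27 and 4 5fC reads and 36 and 26 5hmC reads. A stretch of 2914 bases from 44389652 to 44392565 had no 5fC site but 8 5hmC sites, and the last 1428 bases of the interval had no site of either mark. Such gaps were common around Zfp42: 93 flank stretches without a 5fC site were at least as long as that of 2914 bases.

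The deepest 5fC cytosines of Zfp42 were CG at 44381434 on the minus strand (62 5fC and 26 5hmC reads), 44376831 on the minus strand (61 and 43) and 44377009 on the plus strand (55 and 51). By 5hmC they were 44375523 on the plus strand (47 5fC and 145 5hmC reads), 44376317 on the minus strand (33 and 129) and 44377111 on the minus strand (44 and 83). The 145 reads at 44375523 were the most at any listed cytosine of the 4 intervals, and 99.9% of the 5hmC sites of its flanks had fewer.

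**Figure D4:**
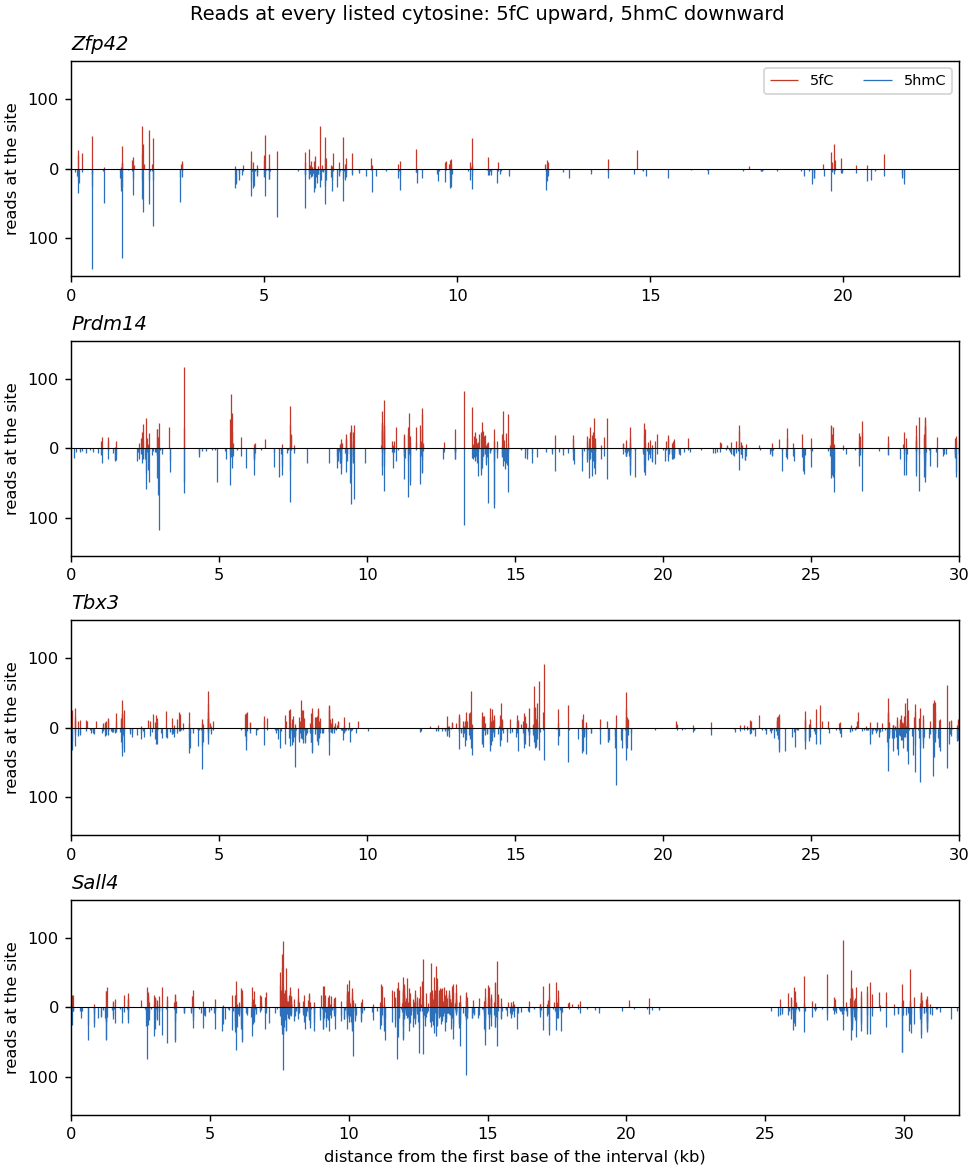
Every listed cytosine of the 4 intervals as a line whose length is its number of reads, 5fC upward and 5hmC downward, against the distance from the interval's first base. The tallest lines are 117 5fC reads at Prdm14 and 145 5hmC reads at Zfp42, and the bare stretches of Tbx3 and Sall4 begin at 10.0 kb and at 21.2 kb.

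CG made up 79.1% of 5fC sites at Prdm14 (interval 73.3 to 83.9%), 78.9% at Tbx3 (74.0 to 83.1%), 72.2% at Sall4 (67.8 to 76.2%) and 73.9% at Zfp42 (64.1 to 81.8%). In the flanks these shares were between 73.0 and 73.9%, and the intervals of gene and flanks overlapped at all 4 genes. For 5hmC the CG share was 72.3% at Prdm14 (68.1 to 76.1%), 73.0% at Tbx3 (69.3 to 76.4%) and 70.7% at Zfp42 (64.4 to 76.2%), against 72.9%, 73.5% and 74.9% in their flanks, again with overlapping intervals. Sall4 was lower, at 66.8% of 5hmC sites (63.5 to 70.0%) against 70.6% in its flanks (70.0 to 71.3%), where the bounds nearly met. By reads it was at 79.2% (78.5 to 80.0%) against 83.3% (83.1 to 83.4%). The 5hmC share by reads was 86.3% at Prdm14 (flanks 85.7%), 82.7% at Tbx3 (85.0%) and 88.0% at Zfp42 (86.1%).

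Cytosines outside CG often had a listed CG dyad of the same mark 20 to 23 bases downstream on their strand. For 5fC this held for 35 of 47 non-CG sites at Prdm14, 74.5% (interval 60.5 to 84.7%) against 57.7% in its flanks (54.9 to 60.4%). It held for 64.6% of 65 at Tbx3 (52.5 to 75.1%), 59.8% of 122 at Sall4 (51.0 to 68.1%) and 50.0% of 24 at Zfp42 (31.4 to 68.6%), against 55.5%, 62.6% and 39.3% in their flanks. For 5hmC the shares were 62.6% at Prdm14 (54.1 to 70.4%), 60.8% at Tbx3 (53.0 to 68.0%), 69.1% at Sall4 (63.3 to 74.3%) and 50.0% at Zfp42 (38.3 to 61.7%), against 59.2%, 69.2%, 70.3% and 38.0% in the flanks. The intervals of gene and flanks overlapped except for 5fC at Prdm14, where the bounds nearly met.

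A larger share of the 5hmC cytosines was also listed for 5fC in the intervals than in the flanks, and this held at each gene. The shares were 37.6% against 28.4% at Prdm14, 34.2% against 25.4% at Tbx3, 41.2% against 29.0% at Sall4 and 30.7% against 22.7% at Zfp42. The Wilson intervals of interval and flanks did not overlap at Prdm14 (33.4 to 42.1% and 27.6 to 29.2%), Tbx3 (30.5 to 38.1% and 24.8 to 26.1%), Sall4 (37.9 to 44.7% and 28.4 to 29.6%) or Zfp42 (25.0 to 37.0% and 21.6 to 23.9%). This share grows with the number of listed 5fC sites per listed 5hmC site, so it is not a result separate from the 5fC excess. That number was 0.476 at Prdm14, 0.526 at Tbx3, 0.550 at Sall4 and 0.409 at Zfp42. The flanks had 0.369, 0.343, 0.381 and 0.296 in the same order. In the other direction, 79.1% of 5fC sites at Prdm14, 64.9% at Tbx3, 74.9% at Sall4 and 75.0% at Zfp42 were also 5hmC sites, against 77.0%, 74.2%, 76.0% and 76.9% in the flanks. Tbx3 stood apart here, with an interval of 59.5 to 70.1% against 73.1 to 75.4% for its flanks.

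Tbx3 also differed in its CG dyads, the pairs of facing cytosines of a CG. Of its 205 dyads with 5fC, 41 had no listed 5hmC on either strand, 20.0%, against 8.34% of 3491 dyads in its flanks. At Prdm14 these were 13 of 147 dyads (8.84%, flanks 6.18%), at Sall4 25 of 248 (10.1%, flanks 7.29%) and at Zfp42 7 of 59 (11.9%, flanks 7.94%). The 41 dyads of Tbx3 were spread over 12 of its 15 bins, with 7 at chr5:120118001-120120000 and 6 at chr5:120136001-120138000 as the most. Dyads with 5hmC on both strands were fewer at Tbx3, 29.4% of 330 (interval 24.7 to 34.5%) against 41.4% of 8616 in the flanks (40.3 to 42.4%). At the other genes they were 41.3% at Prdm14 (flanks 45.5%), 46.0% at Sall4 (43.4%) and 40.7% at Zfp42 (40.0%). The median 5hmC site of Tbx3 had 7 reads, the lowest of the 4 genes, against 8 in its flanks, and the part of depth in these shares was not tested.

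For 5fC, 21.1% of dyads were listed on both strands at Prdm14 (flanks 23.1%), 18.5% at Tbx3 (20.1%), 27.8% at Sall4 (22.3%) and 15.3% at Zfp42 (20.7%). Sall4 had the largest share of dyads with both marks on both strands, 42 of 390 dyads with either mark or 10.8% (interval 8.07 to 14.2%), against 6.59% in its flanks (6.14 to 7.07%). At Prdm14 this share was 8.24% (flanks 7.30%), at Tbx3 5.12% (5.12%) and at Zfp42 6.67% (5.46%). Where a dyad was listed on 1 strand for each mark, the strand was the same in 51 of 56 dyads at Prdm14, 62 of 83 at Tbx3, 65 of 81 at Sall4 and 17 of 21 at Zfp42. The flank shares of the same quantity were between 77.6% and 81.5%.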

How the data were processed

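The 6 Pvu-Seal-seq libraries were made from genomic DNA of E14 cells. Per the submitters' processing notes, CASAVA, bcl2fastq, cutadapt and Bowtie were used with build mm9, without versions. The sources used here do not say how sites were listed, how 5fC was told from 5hmC or which libraries each table sums. The authors deposited 2 tables of raw counts, whole numbers of reads at each listed cytosine without normalization, with at least 2 reads at each site. The tables hold 102252280 nuclear 5fC reads and 264006904 nuclear 5hmC reads. These sums leave out reads at unlisted cytosines and are not the sequencing depth.

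Positions were taken as 0-based and are printed 1-based. Sites and reads were summed per interval, per 2 kb bin from the interval's first base, in 500 kb on each side and in flank windows of the interval's length. Ratios of densities have exact Clopper-Pearson 95% intervals, ratios of 5fC to 5hmC Woolf's log intervals and shares Wilson intervals. No test was made, since sites, bins and windows are not replicates. The genes, their intervals and the quantities described were chosen with earlier results of these data known. Bins with the most and fewest reads, the 3 deepest cytosines of each mark and the longest stretches without a site are named in each interval. Other bins named were chosen after their values were seen. Other genes of the network were not analysed here without an mm9 annotation. The alternatives were at least 10 reads per site, CG sites alone, sites counted once each, flanks of 100 kb, leaving out the deepest site, and 1 kb bins. The functions that count were run on simulated data and passed 5 of 5 checks. Python 3.11.15, numpy 2.4.6, pandas 2.3.3, scipy 1.17.1 and matplotlib 3.10.9 were used.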

Additional observations from a re-analysis of the deposited data

How the results depend on the processing

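No paired analysis was possible because each cytosine has 1 pooled count, and no library could be left out for the same reason. Flanks of 100 kb changed most. Against them the 5fC ratio of interval to flanks turned below 1 at Zfp42 (0.941) and was 1.31 at Prdm14, 1.21 at Tbx3 and 1.25 at Sall4. That of 5hmC turned below 1 at Zfp42 (0.886), Tbx3 (0.946) and Sall4 (0.982) and was 1.12 at Prdm14. The ratio of 5fC to 5hmC, interval over flanks, was 1.06 at Zfp42, 1.16 at Prdm14, 1.28 at Tbx3 and 1.27 at Sall4, and its value was above 1 at all 4 genes in all 5 alternatives run on it, but the counting interval at Zfp42 with these flanks was 0.995 to 1.13. That of 5hmC at Sall4 was 0.963 to 1.00. High bins were then 16.7% of bins for either mark at Zfp42, 0% for 5hmC at Prdm14, 13.3% for 5fC and 6.67% for 5hmC at Tbx3, and 18.75% and 6.25% at Sall4. The bins of those flanks were high in 15% (5fC) and 8% (5hmC) of cases around Zfp42, 5% (5hmC) around Prdm14, 12% and 6% around Tbx3, and 10% and 4% around Sall4. With CG sites alone the ratio to the flanks was 2.40 for 5fC at Zfp42, 1.09 for 5hmC at Tbx3 and 1.13 for 5hmC at Sall4, and the ratio of 5fC to 5hmC was 1.65 at Tbx3 and 1.49 at Sall4. With sites counted once each, 5fC was 2.54 at Zfp42 and 1.64 at Prdm14, 5hmC was 1.27 at Prdm14, 1.18 at Tbx3 and 1.17 at Sall4, and 5fC to 5hmC was 1.38 at Zfp42. With at least 10 reads per site 5hmC was 1.09 at Tbx3, and without its deepest site 5hmC was 1.72 at Zfp42. In 1 kb bins 23.3% were high for 5hmC at Tbx3 (flank bins 13.4%) and 21.9% for 5fC at Sall4 (16.2%). Other values stayed within their counting intervals, or within 1.5 times for bins. The levels by distance show that the nearer flanks hold more reads than the farther ones; causes of the other moves were not tested.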
